A study of Mus musculus with 7 samples.

Results

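The epidermal growth factor (EGF) family was followed through the seminal vesicle as 9 genes, the 6 ligands Egf, Tgfa, Areg, Ereg, Hbegf and Nrg1 and the 3 receptors Egfr, Erbb2 and Erbb3, of the 30406 genes counted. The genes were chosen by name, from the same ligand and receptor family, and with earlier results of these data known. Other genes of the family are read with its pathway below. Their RNA was counted in 6 classes of cells, each picked with genes that are not members: basal cells by Krt5 and Krt14, secretory cells by the share of their RNA that came from the seminal vesicle secretory (Svs) genes, prostate-like cells by Tgm4 and Pbsn together, fibroblasts by Col1a1 and Col1a2, macrophages by C1qa and endothelial cells by Pecam1.

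The cells came from 23 wild type male mice. An aging pool held 10 C57BL/6J mice on chow, 2 of them at 3 months and 2 each at 20 and at 28 months with and without rapamycin, an inhibitor of the mTOR kinase. A diet pool held 8 FVB/NJ mice at 3 months, 2 each on a control, a high fat and a low protein diet and under caloric restriction. The other 5 mice, all FVB/NJ, were run as 1 library each: 3 diet individuals (control, high fat and low protein) and a young (3 months) and an old (18 months) individual on the control diet. Seminal vesicles were opened, drained and digested with enzymes into single cells, so each value describes the cells that came through that step. The aging and diet pools differed in strain, food, age and library together, and these cannot be told apart.

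EGF family ligands are made as membrane proteins whose outer part is cut off by metalloproteases such as ADAM17, or acts while still attached to the cell. EGF, transforming growth factor alpha, amphiregulin, epiregulin and heparin-binding EGF bind EGFR. Neuregulin 1 binds ERBB3, ERBB2 has no known ligand of its own and pairs with the other receptors, and the pairs signal through the Ras, ERK and PI3 kinase routes that govern growth, survival and repair of epithelia.

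On GRCm38, Egf lies on chromosome 3 (129677565 to 129755316, minus strand), Tgfa on chromosome 6 (86195223 to 86275719, plus strand) and Nrg1 on chromosome 8 (31814551 to 32884029, minus strand). Areg (91139599 to 91148432) and Ereg (91074622 to 91093646) are neighbours on the plus strand of chromosome 5, 45.952 kb apart, and Hbegf is on chromosome 18. Among the receptors, Egfr (16752203 to 16918158) and Erbb2 (98412470 to 98437716) are on the plus strand of chromosome 11, and Erbb3 is on the minus strand of chromosome 10 (128567523 to 128589652). The values count whole genes, so exons, introns and UTRs are not separated.

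Of 53352 deposited cells, 40306 passed the limits on genes, unique molecular identifiers (UMIs, 1 per captured RNA molecule) and mitochondrial RNA. The 6 classes took 22882 of them: 5961 basal, 9714 secretory, 483 prostate-like, 3984 fibroblast, 1411 macrophage and 1329 endothelial cells, with median depths of 2102, 13589, 13490, 2168.5, 3143 and 2152 UMIs. Of 28 further marker genes, each was highest in its own class apart from Spink1, 1 of the 4 prostate-like markers. The sets of libraries stood apart in makeup: of the classed cells, basal cells were 6.53% in the aging pool, 23.6% in the diet pool, 9.08% in the diet individuals and 58.0% in the young and old individuals. The young and old individuals held 0 secretory and 0 prostate-like cells, 4132 of the 5961 basal cells and 876 of the 1329 endothelial cells, and their basal cells carried 4814 and 13411 CPM (counts in 1000000 UMIs) of epididymis principal cell markers (Lcn8, Lcn9, Gpx5 and Adam28 summed), against at most 23.5 CPM in basal cells of any other mouse. Values without these mice are given beside the results that they could move most.

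UMIs were summed per mouse and class wherever a class had at least 10 cells, giving 120 sums of 14431 to 44400397 UMIs over 21, 21, 12, 23, 23 and 20 mice for the classes in the order above. A level is the CPM of such a sum, given as mean ± SD over mice. A difference is the log2 fold change of a class against the summed other classes of the same mice, from the quasi-likelihood test of edgeR, its p-values adjusted by Benjamini-Hochberg across every gene tested, and it passed at an adjusted p under 0.05. Svs RNA took a median of 65.2% of a secretory cell's UMIs, which lowers the CPM of every other gene there, so the differences used TMM scaling. With the library size alone as the scale, the median of all genes moved by -2.08 (log2) in the secretory comparison and by 0.61 to 1.19 in the other 5, and members whose direction turned under it are named as such.

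The classes divided the family between them. Basal cells held the highest levels of Hbegf, Nrg1, Egfr and Tgfa, prostate-like cells of Egf, Erbb2 and Erbb3, macrophages of Areg and fibroblasts of Ereg, by CPM. For Erbb2 and Erbb3 the order depends on the scale, since with TMM scaling secretory cells were above prostate-like cells by 0.46 and 0.21 (log2), the latter not passing. Of the 54 pairs of a member and a class, 35 had enough UMIs to be tested, and of these 9 were higher, 21 were lower and 5 did not pass. Levels are compared within a gene across classes and not between genes.

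**Figure D1:**
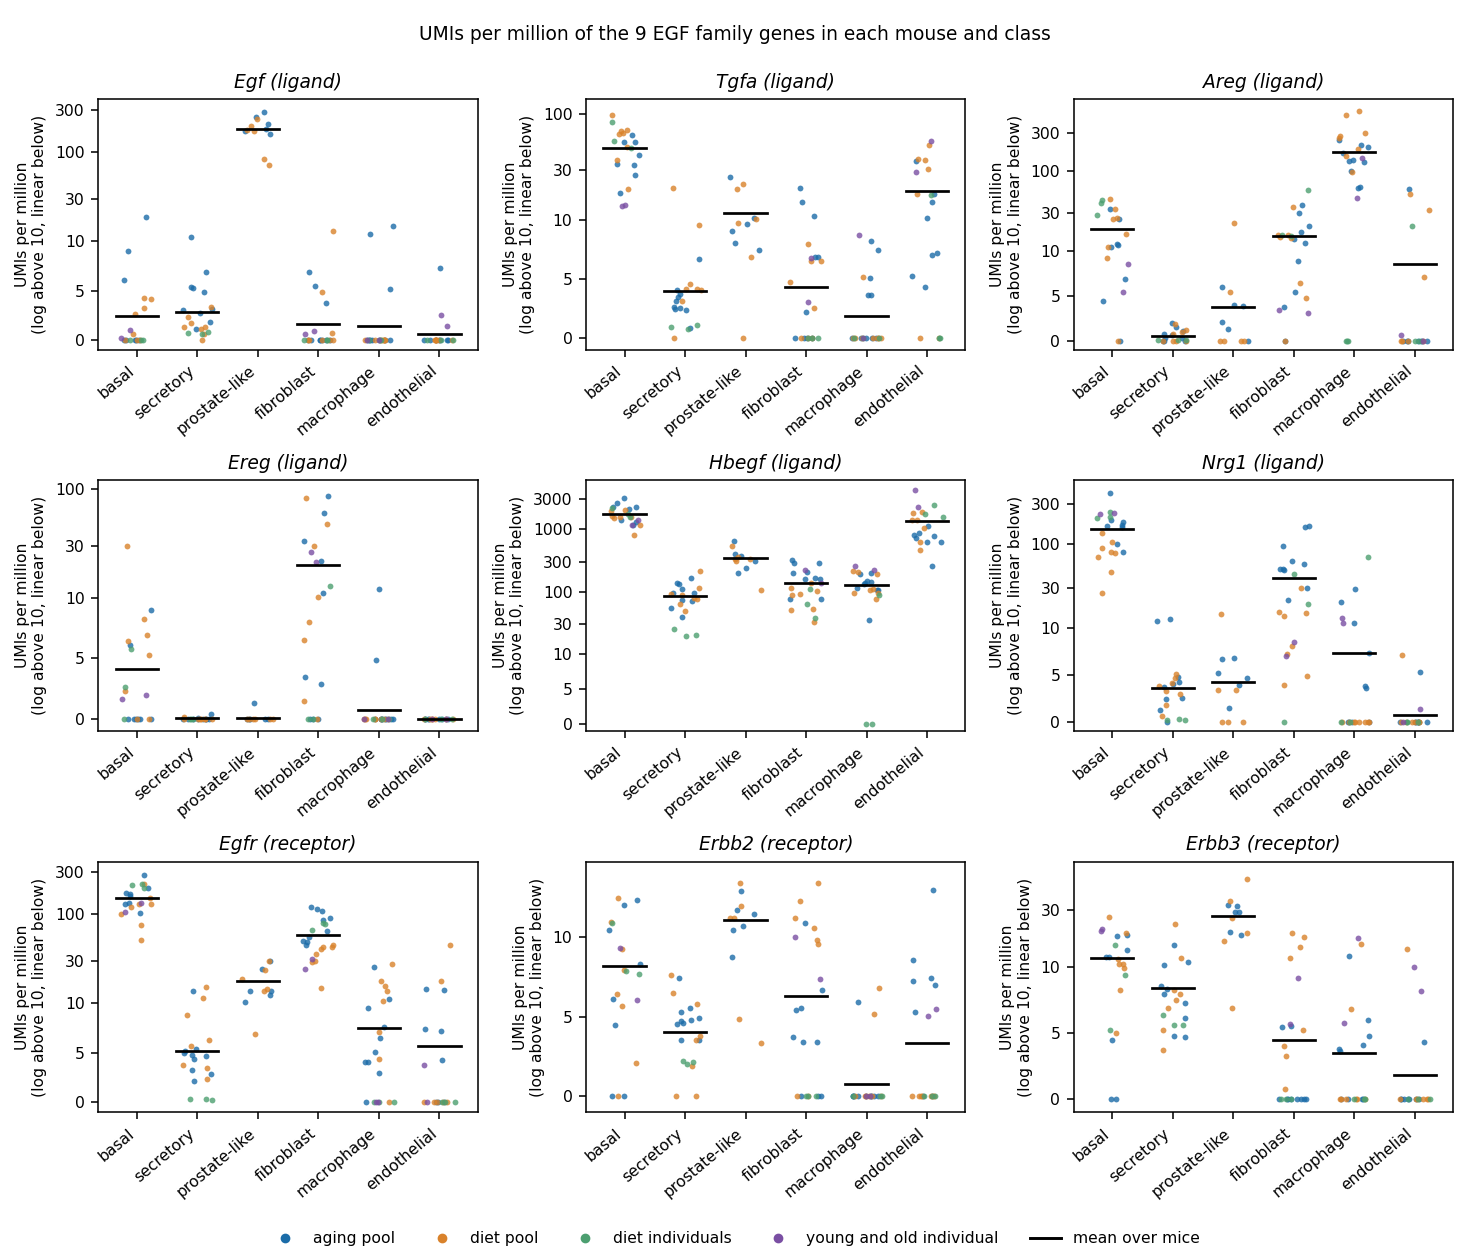
Level of each of the 9 members in the 6 classes, in CPM on an axis that is linear near 0 and logarithmic above. Each point is 1 mouse, coloured by its set of libraries, and the line is the mean of a class; Egf stands above every other class in all 12 mice with prostate-like cells, while Hbegf is high in both basal and endothelial cells, whose ranges overlap.

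Egf, the ligand that names the family, was found mainly in prostate-like cells, which held 1689 of its 2504 UMIs, against 279 in secretory cells and 245 in cells outside the 6 classes. Its level there was lowest at 71.6, at the median 182 and highest at 285 CPM (184 ± 61.5, n = 12 mice), and all 12 mice lay above 18.8 CPM, the highest value of any mouse in any other class. The mean elsewhere was 2.82 ± 2.66 in secretory cells (n = 21), 2.38 ± 4.51 in basal cells (n = 21), 1.57 ± 3.24 in fibroblasts (n = 23), 1.39 ± 3.99 in macrophages (n = 23) and 0.558 ± 1.70 CPM in endothelial cells (n = 20). The ranges of those 5 classes overlapped, and with Svs genes left out of the totals the secretory mean was 6.92 CPM. The difference of prostate-like cells against the other classes was 4.62 (SE 0.187, edgeR adjusted p = 7.79e-15, higher in 12 of 12 mice), and it was 4.13 in the aging pool alone and 5.44 in the diet pool alone. Set directly against secretory cells, the other class marked by genes of seminal fluid proteins, it was higher in 12 of 12 mice (secretory against prostate-like, -3.83, adjusted p = 4.34e-14). Against the summed other classes of the same mice Egf was lower in secretory cells (-1.91, edgeR adjusted p = 3.04e-07, lower in 17 of 21 mice). Over all mice, prostate-like cells held most of the Egf UMIs on that other side. Among the 5 classes without them, the secretory mean was the highest, so the call does not make secretory cells the lower class there.

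Prostate-like cells were found in 20 of 23 mice, 12 of them with at least 10 such cells, and their Egf was spread over many of these cells. The study saw no strongly TGM4-positive cells in sections of the seminal vesicle. It gives reasons for and against such cells there, and holds that contamination from the adhering prostate better matches its histology. Their origin was not tested here. Before thinning, 341 of 483 cells (70.6%) held at least 1 Egf UMI. With each cell thinned to 1000 UMIs, which left out 4 prostate-like and 285 basal cells, the share was 16.05% ± 7.03 of prostate-like cells over 12 mice and 0.0384% ± 0.176 of basal cells, at median depths of 13490 and 2102 UMIs before thinning. The basal share gives the level in a class with little Egf.

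Tgfa, which encodes transforming growth factor alpha, was highest in basal cells, with a lowest value of 13.7, a median of 48.8 and a highest of 99.7 CPM (48.7 ± 23.5, n = 21). Endothelial cells followed with 0, 16.1 and 56.1 CPM (19.0 ± 17.6, n = 20) and prostate-like cells with 0, 9.73 and 25.6 CPM (11.6 ± 7.25, n = 12). Fibroblasts (4.35 ± 5.40), secretory cells (4.03 ± 4.31) and macrophages (1.83 ± 3.03 CPM) were lower and overlapped each other. The ranges of basal and endothelial cells overlapped too, and 8 of 21 basal values exceeded every value elsewhere. The young and old individuals, at 13.7 and 14.1 CPM, were the lowest basal values. In these 2 mice the order was reversed, with endothelial values of 28.9 to 56.1 CPM. The basal difference was 2.23 (SE 0.275, edgeR adjusted p = 1.66e-07, higher in 20 of 21 mice), 2.19 in the aging pool alone and 2.50 in the diet pool alone. The endothelial difference of 0.12 (SE 0.343, adjusted p = 0.797) did not pass and was -0.35 without the young and old individuals. Tgfa was lower in secretory cells (-0.72, adjusted p = 0.0361), a call lost in the diet pool alone and turned in direction in the aging pool alone (0.21), and in prostate-like cells (-0.63, adjusted p = 0.0243), where the library size alone gave 0.50.

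Areg encodes amphiregulin, a ligand that immune cells as well as epithelia are known to release. Macrophages held 0 CPM at the lowest, 144 at the median and 558 at the highest (172 ± 142, n = 23), and 19 of 23 mice were above 59.4 CPM, the highest value in any other class. The mean was 19.0 ± 14.2 in basal cells, 15.5 ± 13.9 in fibroblasts, 8.60 ± 18.1 in endothelial cells, 3.75 ± 6.25 in prostate-like cells and 0.556 ± 0.663 CPM in secretory cells. Basal cells and fibroblasts overlapped over nearly their whole ranges. The macrophage difference was 4.70 (SE 0.255, edgeR adjusted p = 5.87e-17, higher in 20 of 23 mice), and it was 4.82 in the aging pool alone and 4.89 in the diet pool alone. The exceptions were the 3 diet individuals, which had 47 macrophages with 64238 UMIs in all and 0 Areg UMIs, where 3 counts would be 46.7 CPM.

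Within macrophages, Areg sat in few cells. At least 1 UMI was found in 142 of 1411 cells (10.1%), and the 15 cells richest in it held 42.2% of its 819 UMIs, the richest one 45. Thinned to 1000 UMIs, 6.33% ± 4.60 of macrophages held Areg in 20 of 23 mice, against 0.202% ± 0.571 of secretory cells, whose median depth was 13589 UMIs against 3143 in macrophages; 19 macrophages and 0 secretory cells were left out. The C1qa gate also held T cell markers at 0 to 139 CPM (median 40.6, 3 genes summed) and dendritic cell markers at 0 to 131 CPM (median 32.6), and their part in the Areg level was not tested. Areg was lower in secretory (-4.28, lower in 21 of 21 mice), prostate-like (-2.45), endothelial (-2.35) and fibroblast cells (-0.996, adjusted p = 0.0167), the last call turning to 0.0094 with the library size alone. The first 3 rest on 41, 34 and 17 Areg UMIs, with 7 of 21, 5 of 12 and 14 of 20 mice at 0. Over all mice, macrophages held 819 of the 1303 Areg UMIs of the 6 classes, and so most of those on the other side. In basal cells the difference was -0.05 (SE 0.479, adjusted p = 0.940), with settings on both sides of 0.

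Ereg, the gene of epiregulin, was the rarest member with 379 UMIs in all. Fibroblasts held 0 CPM at the lowest, 10.2 at the median and 86.1 at the highest (20.3 ± 26.1, n = 23), with 6 mice at 0. Basal cells followed with 0 to 29.8 CPM (4.10 ± 6.68), 5 of 23 fibroblast values exceeded that range, and the mean was at most 0.743 CPM in the other classes. Endothelial cells had 0 Ereg UMIs of 4084324, where 3 counts would be 0.735 CPM. The gene passed the filter on low counts in no class comparison, so it has no call; without the filter the fibroblast difference was 3.65 (SE 0.415, edgeR adjusted p = 6.60e-09). A single cell held 43 of the 263 fibroblast UMIs (16.3%), and 91 of 3984 fibroblasts had at least 1.

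Hbegf, the gene of heparin-binding EGF-like growth factor, was the most counted member with 68374 UMIs. Basal cells held 814 at the lowest, 1553 at the median and 3075 CPM at the highest (1724 ± 547, n = 21), and endothelial cells 257, 1086 and 4248 CPM (1327 ± 919, n = 20). Prostate-like cells had 345 ± 141, fibroblasts 138 ± 83.1, macrophages 128 ± 67.4 and secretory cells 86.1 ± 47.9 CPM. Both leading classes thus had means well above the rest, and their ranges overlapped. The endothelial range also overlapped those of prostate-like cells (108 to 638 CPM) and fibroblasts (32.7 to 320 CPM), while the basal range did not. The young and old individuals had endothelial levels of 4248 and 2265 CPM, the highest and the third highest of the 20.

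The basal difference of Hbegf was 2.44 (SE 0.195, edgeR adjusted p = 1.25e-10, higher in 20 of 21 mice) and the endothelial difference 0.89 (SE 0.172, adjusted p = 5.12e-05, higher in 17 of 20 mice). Without the young and old individuals the endothelial value was 0.87, and it was 0.53 in the aging pool alone and 0.70 in the diet pool alone. Endothelial sums also carried basal markers (Trp63, Krt15, Krt17, Col17a1 and Dst summed) at 103 to 678 CPM, median 238, against 2683 to 9746 in basal cells, and their part in the endothelial Hbegf level was not tested. Basal cells were above endothelial cells by 0.58 (SE 0.194, adjusted p = 0.0106, 15 of 19 mice), and prostate-like cells lay below endothelial cells (-1.46, adjusted p = 5.02e-06, 10 of 11 mice). Fibroblasts and macrophages, neighbours in the order of levels, differed by -0.40 (SE 0.204, adjusted p = 0.0790), which did not pass. Hbegf was lower in fibroblasts (-2.33, 23 of 23 mice), macrophages (-1.76, 23 of 23 mice), secretory cells (-1.01) and prostate-like cells (-0.78), and in the last the library size alone gave 0.34.

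**Figure D2:**
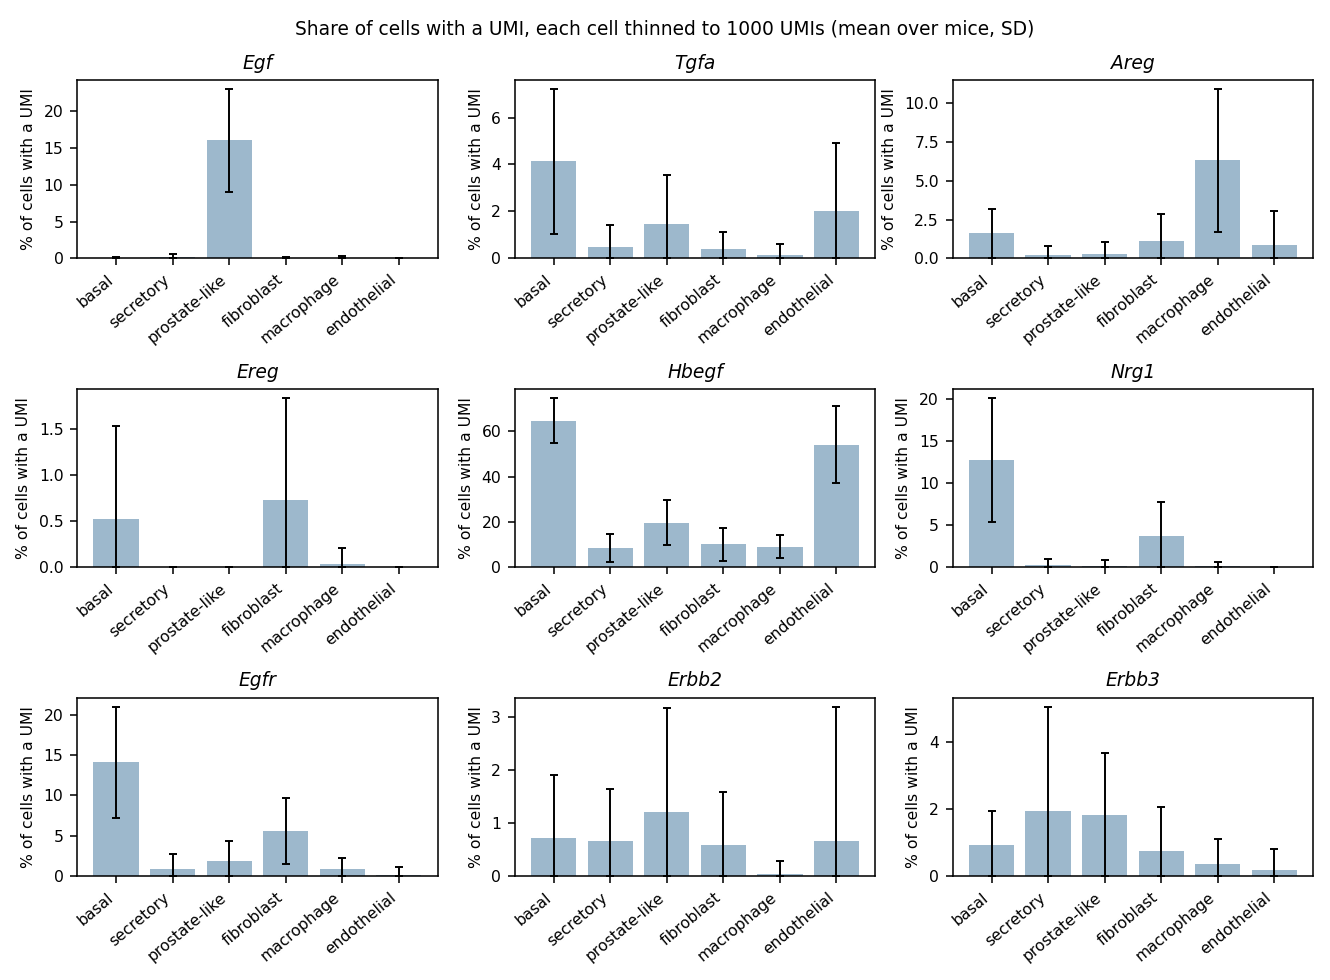
Share of cells of each class with at least 1 UMI of each member after thinning every cell to 1000 UMIs; bars are means over mice and whiskers 1 SD. Hbegf was found in 64.8% of basal and 54.2% of endothelial cells, and no other bar reaches 20%.

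Hbegf was also the member found in the largest share of cells. After thinning, 64.8% ± 10.1 of basal cells and 54.2% ± 17.1 of endothelial cells held it, against 8.49% ± 6.08 of secretory cells, with 145 endothelial cells left out. Without the young and old individuals the basal and endothelial shares were 64.9% ± 10.6 and 51.0% ± 14.9. Before thinning these shares were 82.2%, 83.7% and 24.6% of all cells of the class. The comparison of the plotted shares follows the order of the CPM levels in the leading classes.

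Nrg1 encodes neuregulin 1, the ligand of ERBB3 and of ERBB4. Basal cells held 26.3 at the lowest, 158 at the median and 403 CPM at the highest (151 ± 86.4, n = 21), followed by fibroblasts with 0, 21.7 and 163 CPM (39.6 ± 44.9, n = 23). Macrophages (7.36 ± 15.5), prostate-like cells (4.18 ± 4.10), secretory cells (3.54 ± 3.38) and endothelial cells (0.688 ± 1.93 CPM) were far lower, and 10 of 21 basal values exceeded every fibroblast value. The basal difference was 3.90 (SE 0.328, edgeR adjusted p = 3.10e-10, higher in 21 of 21 mice). That in endothelial cells was -6.59 (SE 0.439, edgeR adjusted p = 1.08e-13, lower in 20 of 20 mice). The endothelial value rests on 4 Nrg1 UMIs, with 17 of 20 mice at 0. Nrg1 passed the filter on low counts there through the other classes. Basal cells were above fibroblasts in 21 of 21 mice by 2.38 (adjusted p = 4.04e-08). Thinned to 1000 UMIs, 12.7% ± 7.37 of basal cells, 3.69% ± 3.99 of fibroblasts and 0 of 1184 endothelial cells held an Nrg1 UMI, which allows a share with a UMI at this depth of up to 0.253%. Before thinning, 3 of 1329 endothelial cells held one. Nrg1 was also lower in prostate-like (-2.71) and secretory cells (-2.11). In fibroblasts its difference against the other classes did not pass. That difference turned in direction with the library size alone, with looser gates and without the young and old individuals.

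Among the receptors, Egfr, which binds most ligands of the family, followed the same order as Nrg1 in its leading classes. Basal cells held 51.4 at the lowest, 135 at the median and 278 CPM at the highest (152 ± 54.3, n = 21) and fibroblasts 14.9, 49.1 and 121 CPM (58.6 ± 29.8, n = 23). Prostate-like cells (17.7 ± 7.67), macrophages (7.53 ± 8.01), endothelial cells (5.73 ± 10.97) and secretory cells (5.21 ± 4.09 CPM) were lower, and the last 3 overlapped. In 15 of 21 mice the basal value lay above the highest fibroblast value. The basal difference was 2.98 (SE 0.268, edgeR adjusted p = 1.00e-09, higher in 21 of 21 mice), and basal cells were above fibroblasts by 1.41 (adjusted p = 2.06e-09, 21 of 21 mice). The fibroblast difference against all other classes was 0.54 (SE 0.303, adjusted p = 0.119) and passed without the young and old individuals (0.82, adjusted p = 0.00857). Egfr was lower in endothelial cells (-3.89), macrophages (-2.22), secretory (-2.01) and prostate-like cells (-1.24).

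Erbb2, the receptor without a known ligand, was low everywhere. Prostate-like cells had 3.33 at the lowest, 13.7 at the median and 24.0 CPM at the highest (13.3 ± 5.93, n = 12), basal cells 8.18 ± 5.54, fibroblasts 6.31 ± 6.60, secretory cells 4.02 ± 2.11, endothelial cells 3.38 ± 5.38 and macrophages 0.782 ± 2.08 CPM. The ranges of all 6 classes overlapped. The prostate-like difference was 0.14 (SE 0.182, edgeR adjusted p = 0.556), and the basal difference of -0.47 (SE 0.206, adjusted p = 0.0485) turned to 0.63 with the library size alone. In secretory cells Erbb2 was under the filter on low counts, and DESeq2 (1.17, adjusted p = 1.64e-08) and 4 other settings called it higher, with values from 0.98 to 1.39.

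Erbb3, the receptor of neuregulins, was the one member that passed as higher in both classes marked by genes of seminal fluid proteins. Prostate-like cells held 6.87 at the lowest, 27.3 at the median and 55.1 CPM at the highest (26.9 ± 12.2, n = 12), basal cells 12.0 ± 6.97, secretory cells 8.40 ± 4.29, fibroblasts 4.48 ± 6.13, macrophages 3.48 ± 5.22 and endothelial cells 1.84 ± 4.11 CPM. Of 12 prostate-like values, 6 exceeded every value elsewhere. The secretory difference was 1.66 (SE 0.193, edgeR adjusted p = 2.22e-08, higher in 21 of 21 mice) and rests on the scale: TMM-scaled levels were 16.4 against 4.77 CPM, plain levels 8.40 against 9.87 CPM, and the library size alone gave -0.34. The prostate-like difference was 0.59 (SE 0.202, adjusted p = 0.0153, higher in 8 of 12 mice) and did not pass in the aging pool alone (0.27, adjusted p = 0.310). Secretory and prostate-like cells differed by 0.21 (SE 0.176, adjusted p = 0.311). Basal cells had -0.63 (SE 0.273, adjusted p = 0.0461), which was 0.47 with the library size alone, and endothelial cells -2.40 (adjusted p = 2.67e-06). The endothelial value rests on 23 Erbb3 UMIs, with 16 of 20 mice at 0. Of these UMIs, 20 came from the young and old individuals. Without these individuals the basal mean was 11.1 CPM and the endothelial mean 1.03 CPM.

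**Figure D3:**
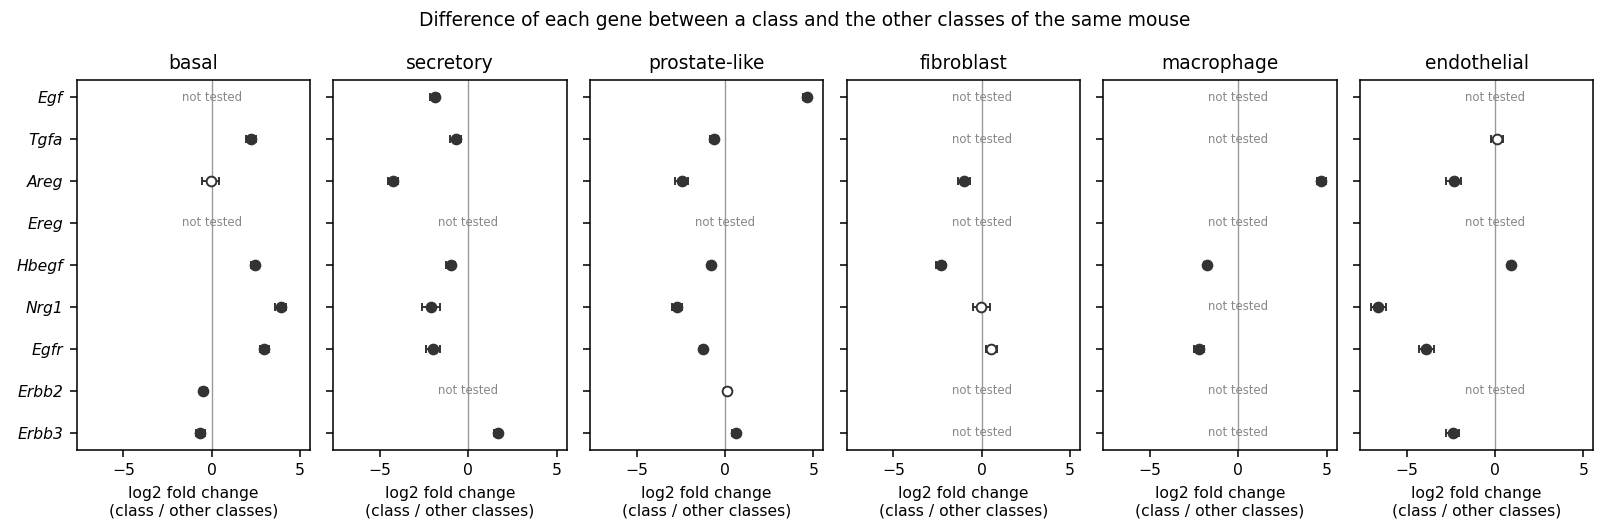
Difference of each class against the other classes for each member, as log2 fold change with its standard error. Filled points passed at an adjusted p under 0.05, open points did not, and members with too few UMIs are marked as not tested; 9 of the 35 tested differences passed as higher and 21 as lower.

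Read by class, the basal cells had 4 members higher (Hbegf, Nrg1, Egfr and Tgfa) and 2 lower (Erbb2 and Erbb3) of 7 tested, with a median difference of 2.23, where 26.9% of 8448 genes were higher and 36.0% lower and the median of all genes was -0.10. Secretory cells had 1 higher (Erbb3, to which DESeq2 added Erbb2) and 6 lower of 7, median -1.91, against 32.1% and 46.5% of 8249 genes. Prostate-like cells had 2 higher (Egf and Erbb3) and 5 lower of 8, median -0.71, against 29.0% and 30.7% of 8165 genes. Fibroblasts had 0 higher, at an unadjusted p under 0.05 as well, and 2 lower (Areg and Hbegf) of 4 with edgeR, while DESeq2 called Ereg as higher (3.73, adjusted p = 1.62e-14), against 29.5% and 35.8% of 7559 genes. Macrophages had 1 higher (Areg) and 2 lower (Hbegf and Egfr) of 3, against 34.2% and 40.8% of 4796 genes. Endothelial cells had 1 higher (Hbegf) and 4 lower of 6, against 24.6% and 37.1% of 7984 genes. Each count rests on 3 to 8 tested members, so only the size of the shares is described.

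The basal cells were next set against each other class in turn. Prostate-like cells had more Egf (basal against prostate-like -5.67, edgeR adjusted p = 1.69e-13, 12 of 12 mice), and basal cells more Nrg1 (4.61), Egfr (2.86), Hbegf (2.26) and Tgfa (1.96), each in 12 of 12 mice, where 71.6% of all genes passed in either direction. Against macrophages Areg was lower in basal cells (-3.57, adjusted p = 2.29e-12, 18 of 21 mice), and Nrg1 (4.36), Egfr (3.86) and Hbegf (3.32) were higher in 21 of 21 mice, with 77.0% of all genes passing. Basal cells also exceeded fibroblasts in Hbegf by 3.77, with 67.5% of genes passing, endothelial cells in Nrg1 by 7.39 and Egfr by 5.11 (19 of 19 mice each, 67.8%), and secretory cells in Nrg1 by 3.64, Egfr by 3.32, Hbegf by 2.38 and Tgfa by 1.99 (83.2%). Endothelial cells held only 4 Nrg1 and 14 Egfr UMIs over 20 mice. The pairs used for the order of levels had backgrounds of 79.9% (prostate-like against endothelial cells) and 75.5% (fibroblasts against macrophages). With most genes passing in each pair, a call there says little about the members by itself, and the sizes carry the description.

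Secretory and prostate-like cells differed in Egf far more than in the other members. Of 6 members tested, Egf (-3.83) and Erbb2 (0.46, adjusted p = 0.0390, higher in secretory cells in 9 of 12 mice) passed, where 60.5% of genes did. Tgfa (0.34, SE 0.195), Erbb3 (0.21), Egfr (0.15, SE 0.240) and Hbegf (0.07, SE 0.148) did not pass. With the library size alone the last 4 and Erbb2 lay between -1.85 and -1.42, so their direction depends on the scale, unlike that of Egf.

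Ligands and receptors were also counted within single basal cells. Of 5961 basal cells, 4901 held Hbegf, 2022 Nrg1 and 1646 Egfr, and 1429 held both Hbegf and Egfr and 676 both Nrg1 and Egfr. Erbb3, the receptor that binds neuregulin 1, was found with Nrg1 in 103 cells. Hbegf was held by 86.8% of the cells with Egfr and by 82.2% of all basal cells, and Nrg1 by 41.1% of the cells with Egfr and by 33.9% of all. Without the young and old individuals, which gave most of these cells, 581 of 638 cells with Egfr held Hbegf (91.1%, against 84.0% of 1829 basal cells), 252 held Nrg1 (39.5%, against 27.8%), and 25 cells held Nrg1 and Erbb3. Such counts grow with a cell's depth and are a description with no test.

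Genes whose levels moved like those of a member over the 120 sums were named by the highest Pearson r of log2(CPM + 10) among 9581 genes, as a description, since sums of 1 mouse share a library and sums of 1 class share a cell type. Nrg1 and Egfr were each among the 3 closest genes of the other (r = 0.846), beside Col7a1, an anchoring collagen of basal epithelium (0.819 with Nrg1), and F3, tissue factor (0.866 with Egfr). Hbegf was closest to the actin crosslinker Actn4 (0.904), and the receptor Epha2 (0.862) was also among its closest genes. Tgfa was closest to the integrin Itga3 (0.800). Egf was closest to Fcgbp (0.960), a mucus protein, and Areg to Fcrls (0.832), Lacc1 (0.813) and Mgl2 (0.812), which are macrophage genes. Erbb3 was closest to Crb3 (0.779), an epithelial polarity gene, and Ereg to Rbp4 (0.668), while the closest gene to Erbb2, C1qtnf4, reached 0.616. Over the 112 sums without the young and old individuals r was 0.852 for Nrg1 with Egfr, 0.909 for Hbegf with Actn4 and 0.631 for Ereg with Rbp4.

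The rest of the pathway was read from 53 further genes: 5 other ligands, the receptor Erbb4, 4 genes of ligand shedding, 15 inhibitors, 18 signal transducers and 10 response genes. In basal cells 19 of 45 tested were higher and 12 lower (median 0.19, all genes -0.10), beside 26.9% and 36.0% of all genes, among them 7 of 13 inhibitors and 6 of 9 response genes as higher, with Etv4, a transcription factor induced by ERK, at 3.64 (21 of 21 mice) and the adaptor Gab2 at -2.01. Secretory cells had 5 higher and 32 lower of 44 (median -0.73, all genes -0.19), beside 32.1% and 46.5% of all genes, including 10 of 13 inhibitors and 4 of 4 shedding genes as lower, with Spry4 at -3.95 and Dusp4 at 2.79. Prostate-like cells had 8 higher and 24 lower of 42 (median -0.50, all genes -0.00), beside 29.0% and 30.7% of all genes, including 7 of 8 response genes as lower, with the kinase Mapk3 at 1.63 and the phosphatase Dusp4 at -4.23.

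Outside the epithelium, fibroblasts had 20 higher and 12 lower of 44 pathway genes (median 0.21, all genes -0.08), beside 29.5% and 35.8% of all genes. Their Nrg2, a second neuregulin, was at 1.87 (higher in 19 of 23 mice) and the cyclin Ccnd1 at -2.48. Macrophages had 11 higher and 9 lower of 33 (median -0.05, all genes -0.10), the former close to the 34.2% of all genes that were higher and the latter beside 40.8% lower, with Adam17, the main protease that sheds amphiregulin and other EGFR ligands, at 3.38 (22 of 23 mice) and Spry1 at -2.90. Endothelial cells had 19 higher and 7 lower of 43 (median 0.47, all genes -0.20), beside 24.6% and 37.1% of all genes, including 8 of 13 inhibitors, with Spry4, an inhibitor of receptor tyrosine kinase signalling, at 3.41 (20 of 20 mice) and Map2k2 at -1.32, although the plain level of Map2k2 was 76.4 against 75.9 CPM. The split of these calls depends on the scale: over the 6 classes 82 were higher and 96 lower, and with the library size alone 158 and 55.

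The aging and diet pools were then compared for how far each class differed from the other classes of its own mice. Fibroblasts differed for 3 members of 7 tested: Nrg1 by -2.93 (diet pool minus aging pool, SE 0.519, edgeR adjusted p = 0.000834), Egfr by -2.02 (SE 0.366, adjusted p = 0.000979) and Hbegf by -1.91 (SE 0.321, adjusted p = 0.000472), where 8.13% of all genes passed. In fibroblasts of the aging pool Nrg1 was 21.7 to 163 CPM (mean 73.5, n = 10) against 3.90 to 29.5 (12.2, n = 8) in the diet pool. Egfr was 45.0 to 121 (78.6) against 14.9 to 44.8 CPM (35.2), and Hbegf 75.1 to 320 (194) against 32.7 to 139 CPM (84.2). The Egfr values of the pools did not overlap, but only just (lowest 45.04 against highest 44.78 CPM), and those of Nrg1 and Hbegf did overlap. The lowest Egfr value of the aging pool equals 3 counts in 20 months with rapamycin replicate 1, a sum of 16 fibroblasts and 66613 UMIs. Within each pool, the fibroblast difference against the other classes was 1.71 and -1.24 for Nrg1, 1.62 and -0.43 for Egfr and -1.32 and -3.27 for Hbegf, in the aging and the diet pool.

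**Figure D4:**
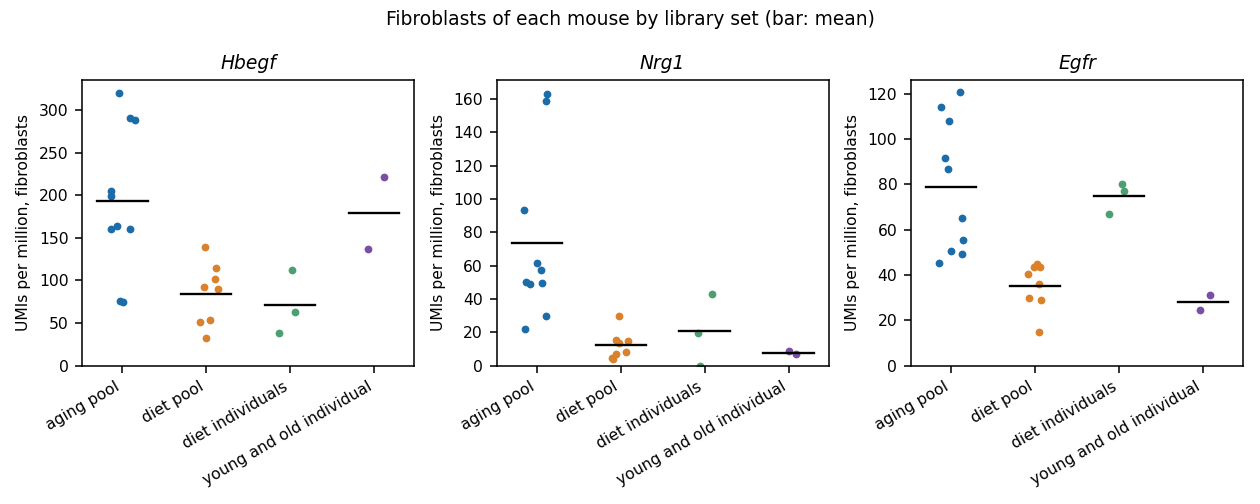
Level of Hbegf, Nrg1 and Egfr in fibroblasts, in CPM, by set of libraries; each point is 1 mouse and the line is the mean of the set. The Egfr values of the aging pool (45.0 to 121 CPM) lie above those of the diet pool (14.9 to 44.8 CPM).

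Other measures moved with this difference. Basal cells, where all 3 genes are high, made up 6.53% of the classed cells of the aging pool and 23.6% of the diet pool, so the cells on the other side of the comparison differed. Smooth muscle markers in fibroblast sums were 75.1 to 1914 CPM in the aging pool and 458 to 2934 in the diet pool, and Schwann cell markers 0 against 2.17 to 743 CPM. Basal check markers in the same fibroblast sums were 55.9 to 138 CPM in the aging pool and 91.7 to 217 in the diet pool. The part of these measures in the difference was not tested. The 3 diet individuals were FVB/NJ mice of 3 months, like the diet pool. Their fibroblast Egfr was 66.8 to 80.0 CPM, above every diet pool value and within the range of the aging pool. Nrg1 was 0 to 43.2 CPM and Hbegf 38.6 to 112 CPM in their fibroblasts, overlapping both pools. The part of strain, food, age and library in the difference between the pools cannot be told apart.

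In the other classes the pools differed for 1 member. The Egf difference of prostate-like cells was larger by 1.23 in the diet pool (SE 0.302, edgeR adjusted p = 0.0350), with 1.75% of genes passing, while its own level was 157 ± 65.6 CPM there and 211 ± 47.7 CPM in the aging pool (n = 6 each), with overlapping ranges. No member passed in basal (2.93% of genes), secretory (5.4%), macrophage (4.94%) or endothelial cells (3.1%), and of their tests Hbegf in secretory cells (-0.65, unadjusted p = 0.0440) and Nrg1 in macrophages (-5.87, unadjusted p = 0.00823, from 29 UMIs in all mice) had an unadjusted p under 0.05. The Areg difference of macrophages moved by -0.01 (SE 0.179, adjusted p = 0.991), although its own level was 61.6 to 244 CPM in the aging pool and 96.1 to 558 CPM in the diet pool.

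The basal levels of the 4 leading members were read across all sets of libraries as a description. Nrg1 was 79.3 to 403 CPM in the aging pool (mean 181, n = 8), 26.3 to 134 in the diet pool (78.6, n = 8), 203 to 235 in the 3 diet individuals and 226 to 232 in the young and old individuals. The diet pool and the diet individuals, both FVB/NJ mice of 3 months, did not overlap. Egfr followed with means of 168, 122, 208 and 120.3 CPM in the same order, and Hbegf with 2019, 1517, 1803 and 1258 CPM, with overlapping ranges of the pools for both genes. Tgfa had means of 41.0, 59.8, 62.8 and 13.9 CPM, lowest in the young and old individuals.

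Diet and age were compared in basal cells, fibroblasts and macrophages, and not in the other classes. High fat or low protein was set against the control diet over 3 against 3 FVB/NJ mice (pool and individual, with the set of libraries as a term). Caloric restriction was set against the control diet over 2 against 2 mice of the diet pool. For age, 20 and 28 months were set against 3 months in the aging pool, with rapamycin as a term. Only older mice had rapamycin, so the age difference compares older mice without it with those at 3 months. Over these 12 fits 35 tests of members were made, and 0 passed with edgeR or with DESeq2, while 7 had an unadjusted p under 0.05. The share of all genes that passed was 0.0407% in basal cells on high fat diet, 2.37% in basal cells under caloric restriction, 0.0353% in basal cells by age and 0.0% in the other 9 fits, so few genes of any kind passed.

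Under caloric restriction, Hbegf, Egfr and Nrg1 in basal cells were below both control mice in both mice. Hbegf was 814 and 1170.3 CPM against 1538 and 2019 (-0.84, SE 0.214, unadjusted p = 0.00129, edgeR adjusted p = 0.0522). Egfr was 51.4 and 75.0 CPM against 131 and 219 (-1.37, SE 0.351, adjusted p = 0.0548), and Nrg1 46.6 and 26.3 against 78.6 and 69.6 CPM (-0.99, adjusted p = 0.253). The call depends on the setting. With no filter on low counts Egfr (-1.47, adjusted p = 0.00374) and Hbegf (-0.92, adjusted p = 0.0256) passed. Neither passed with DESeq2, with its size factors in edgeR, or with stricter or looser gates. Leaving out a mouse leaves 1 in an arm, so only sizes are given for those fits. Without control replicate 1 Egfr was -1.78 and Hbegf -0.97, and without caloric restriction replicate 2 they were -1.58 and -1.11. Over 10 alternatives both genes stayed lower, Egfr from -1.78 to -0.999 and Hbegf from -1.11 to -0.562. The basal sums of the caloric restriction mice held 84 and 43 cells, against 271 and 21 in the control mice. Their basal check markers were 3365 to 3849 CPM against 6394 to 7132. Their gate genes Krt5 and Krt14 summed to 1857 to 2048 against 2995 to 3392 CPM. Their smooth muscle markers summed to 48.8 to 595 against 3.77 to 9.95 CPM. Hbegf in fibroblasts was 53.4 and 50.7 against 139 and 89.4 CPM (-1.24, adjusted p = 0.367).

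**Figure D5:**
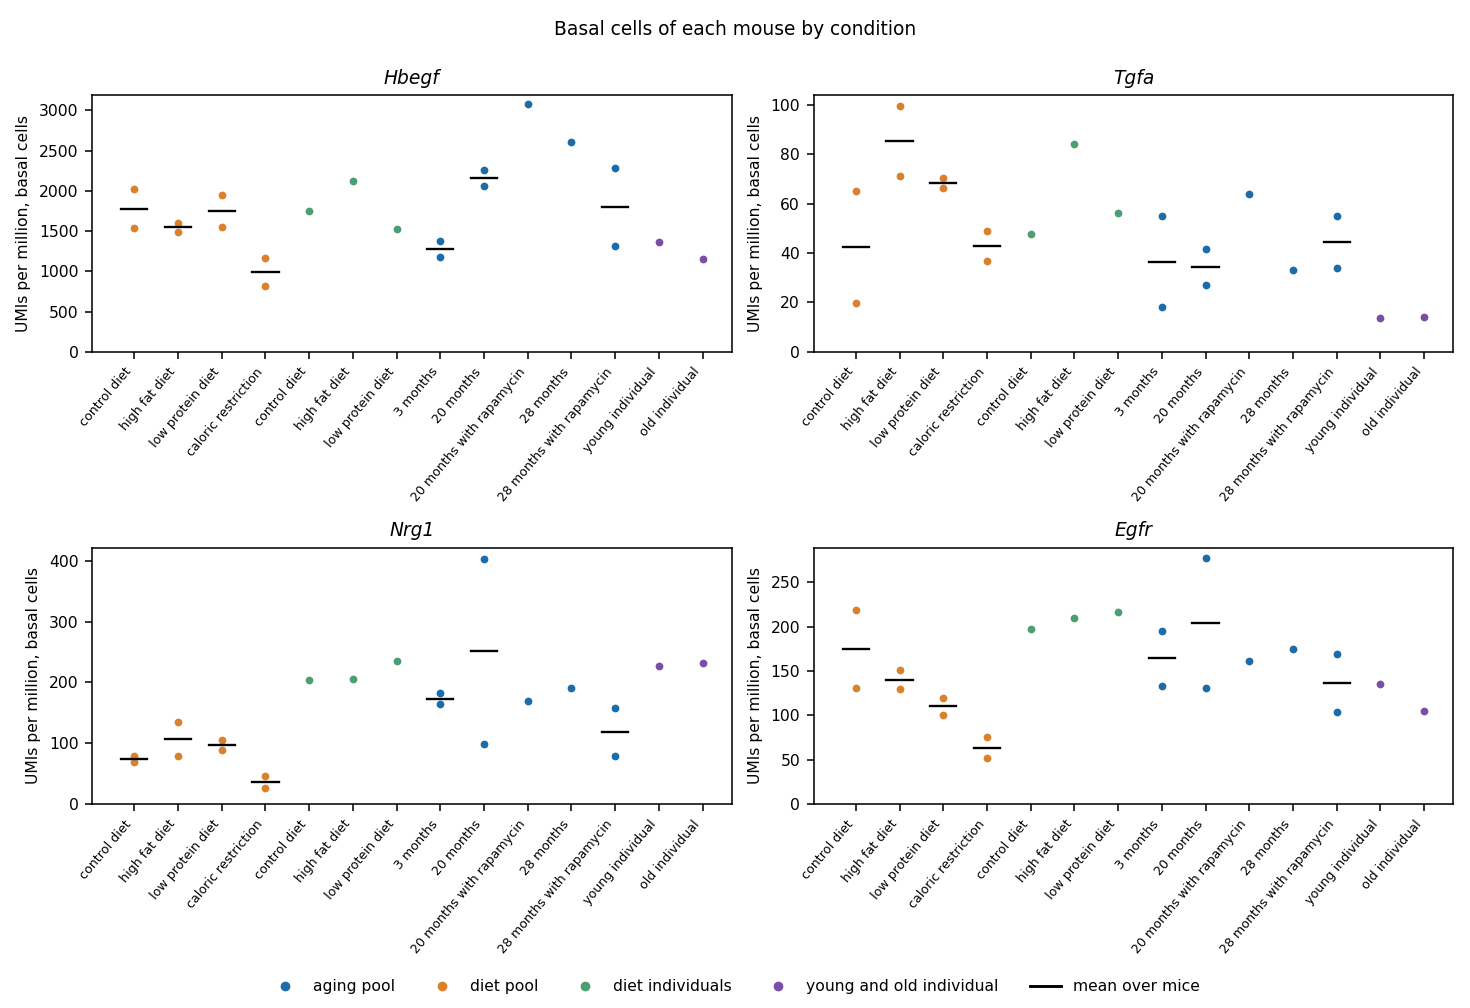
Level of Hbegf, Tgfa, Nrg1 and Egfr in basal cells by condition, in CPM; each point is 1 mouse, coloured by its set of libraries. The caloric restriction mice lie below the control diet mice of the same pool for Hbegf, Nrg1 and Egfr, with 2 mice each.

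Tgfa in basal cells was 71.4, 84.2 and 99.7 CPM on high fat diet against 19.9, 47.9 and 65.4 on control diet (0.54, SE 0.235, unadjusted p = 0.0338, edgeR adjusted p = 1.00), so the groups did not overlap, and the difference was 1.07 without control diet replicate 1 (adjusted p = 1.00). Hbegf differed by -0.01 (SE 0.123), Egfr by 0.00 (SE 0.172) and Nrg1 by 0.23 (SE 0.196) on high fat diet, and on low protein diet the 5 basal members lay between -0.26 and 0.25. Macrophage Areg differed by 0.49 on high fat diet, by 0.92 on low protein diet (adjusted p = 0.976) and by 0.09 under caloric restriction, where the diet individuals with 0 Areg UMIs are part of the first 2 comparisons.

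By age, Hbegf moved in opposite directions in 2 classes, and neither difference passed. In basal cells it was 2064, 2263 and 2604 CPM in older mice without rapamycin against 1172 and 1376 (0.91, SE 0.307, unadjusted p = 0.0113, edgeR adjusted p = 0.990). With the rapamycin mice, the 6 older mice ranged from 1314 to 3075 CPM. Among macrophages it was 35.8 to 146 CPM in the 8 older mice, with or without rapamycin, against 189 and 195, with no overlap. The difference, for older mice without rapamycin, was -0.76 (SE 0.336, unadjusted p = 0.0416, edgeR adjusted p = 0.599). Macrophage Areg differed by -0.16 (SE 0.510, adjusted p = 0.955). Rapamycin was a term in the age fits, but its own difference was not tested, with at most 2 treated mice at each age. Areg in macrophages was 201 and 131 CPM at 20 months without and 209.9 and 244 CPM with rapamycin, and 135 and 63.1 CPM against 61.6 and 128 CPM at 28 months. Hbegf in basal cells was 2064 and 2263 CPM at 20 months and 3075 CPM with rapamycin, and 2604 CPM at 28 months against 2282 and 1314 CPM with rapamycin. Neither gene was higher, or lower, with rapamycin at both ages.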

How the data were processed

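UMI counts per gene and cell were used as deposited by the authors, 1 matrix per mouse. Per the file headers, Cell Ranger 6.0.1 made the matrices of the 2 pools, whose mice were separated by multiplexing tags, and Cell Ranger 3.1.0 those of the 5 single-mouse libraries; per the labels, reads were aligned to mm10 and Seurat was used downstream. No cell annotation was used here. The condition of a pooled mouse comes from the name of its demultiplexed matrix and the study's list of animals.

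Cells were kept from 500 genes and 200 UMIs upwards and up to 10% mitochondrial UMIs. Gates asked for at least 3 UMIs and 5 per 10000 UMIs (Krt5 and Krt14; Col1a1 and Col1a2), 2 UMIs and 2 per 10000 (C1qa; Pecam1), 5 UMIs and 100 per 10000 for Tgm4 with Pbsn, or Svs RNA at 20% or more; 499 cells in more than 1 gate were left out and 16925 were in none. No doublet caller was run. Any 2 of the 7 libraries shared 6 to 30 barcodes, at most 0.407% of the smaller. Stricter gates kept 4509, 9520, 303, 1868, 1292 and 501 cells of the 6 classes in the order of the text.

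Sums per mouse and class with at least 10 cells were tested with edgeR 4.0.16 (R 4.3.3): TMM scaling, the default filter on low counts, mouse as a block in class comparisons, and Benjamini-Hochberg adjustment over all genes tested. Between pools, the difference of a class against the other classes was tested as an interaction. Diet fits had the set of libraries as a term, and age fits had rapamycin. DESeq2 1.42.0 was an alternative. Replicates are mice, and p-values measure the spread between these mice only; intervals and limits from 3 counts cover counting error only. On simulated counts with 4-fold changes, the macrophage comparison recovered 100% of 191 changed genes (4796 genes), the basal comparison 100% of 176 (8448 genes) and the high fat comparison of basal cells 98.2% of 170 (4913 genes). Tables and figures used Python 3.11.15, numpy 2.4.6, pandas 2.3.3, scipy 1.17.1 and matplotlib 3.10.9.

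The members, gene lists, gates and alternatives were chosen with earlier results of these data known. Of the pathway list, the gene with the largest rise and the one with the largest fall among those that passed were named per class, and for each member genes were taken from the 3 of highest Pearson r; 1 gene that this rule gives is not reported here. Gene positions come from GENCODE vM21 on GRCm38, matched by gene identifier.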

Additional observations from a re-analysis of the deposited data

Results flagged for a closer look

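In 6 of 44 groups of mice of 1 set of libraries, the highest mouse lay farther from the others than Dixon's 95% limit for its group size allows; about 1 in 20 groups does so by chance, and these groups mix conditions. Nrg1 in basal cells was 403 CPM in 20 months replicate 1, and Nrg1 and Areg in fibroblasts were 29.5 and 36.0 CPM in low protein diet replicate 2. Hbegf in secretory cells was 211 CPM in caloric restriction replicate 2. Tgfa was 36.4 CPM in endothelial cells of 20 months replicate 2 and 25.6 CPM in prostate-like cells of 3 months replicate 1.

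The difference of a class against the other classes differed between the diet and the aging pool, by the interaction test given above, for Egf in prostate-like cells (1.23) and for Nrg1 (-2.93), Egfr (-2.02) and Hbegf (-1.91) in fibroblasts.

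Cells outside the 6 classes, which no comparison used, held 982 Areg UMIs (41.9% of its UMIs) and 1786 Erbb3 UMIs (49.8%), far above what a count of 0 allows. Areg was 229 CPM in 123 such cells with at least 2 UMIs of macrophage markers, 339 CPM in 20 with mesothelium markers, 105 CPM in 128 with dendritic cell markers and 69.3 CPM in 957 with T cell markers. For Erbb3, 1367 UMIs were in 5070 cells with epididymis principal cell markers, and 60 cells with Schwann cell markers held it at 210.2 CPM. A cell can meet more than 1 of these lists.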

How the results depend on the processing

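Hbegf, Nrg1, Egfr and Tgfa in basal cells, Egf in prostate-like cells (4.13 to 5.85), Areg in macrophages (4.21 to 5.29) and Hbegf in endothelial cells (0.53 to 2.19) passed in the same direction under every alternative tried. Over all members, 412 of 463 class values kept direction and side of the threshold, 22 turned in direction, 21 lost and 8 gained the call; of 141 pair values 134 kept both and 7 turned. The causes were not tested, except that library size alone, chosen after seeing the data, leaves Svs RNA in the scale.

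With library size alone, these turned: in basal cells Areg 0.75, Erbb3 0.47 and Erbb2 0.63; Erbb3 in secretory cells -0.34; Tgfa 0.50 and Hbegf 0.34 in prostate-like cells; Areg 0.0094 and Nrg1 1.16 in fibroblasts; and, secretory against prostate-like, Tgfa -1.54, Erbb3 -1.68, Egfr -1.74, Erbb2 -1.42 and Hbegf -1.85. Areg in basal cells was also 0.0052 without Svs genes, 0.0025 with looser gates and 0.37 with at least 30 cells per sum. Nrg1 in fibroblasts was 0.53 without the young and the old individual, 0.34 with looser gates and 1.71 in the aging pool alone, and Egfr there -0.43 in the diet pool alone. Tgfa in endothelial cells was -0.0699 with DESeq2 size factors, -0.22 with DESeq2, -0.13 with no filter, -0.35 without the young and old individuals and -0.74 in the diet pool alone, and Tgfa in secretory cells 0.21 in the aging pool alone. With stricter gates Erbb2 in prostate-like cells was -0.0803 and Egfr, secretory against prostate-like, -0.20; with looser gates the latter was -0.0090.

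Members called lower were 35 with DESeq2 and 36 with no filter, against 21, since both test more low genes; class pairs gave 99 calls with no filter against 36. The pathway list gave 158 higher and 55 lower calls with library size alone. Members called by condition were 2 with no filter (Egfr and Hbegf in basal cells under caloric restriction) and 0 to 3 when each mouse was left out in turn: without control diet replicate 2 it was Hbegf in fibroblasts (-1.41, edgeR adjusted p = 0.0166), and without caloric restriction replicate 2 Ereg in fibroblasts too (-4.65, adjusted p = 0.0316). A fit with 1 mouse left in an arm assumes that it varies like the other.

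Replicate numbers did not pair mice: deviations of same-numbered mice correlated at -0.159 to 0.232 over 41 pairs, 1 of them over 0.1. With the number as a replicate block, 2 calls were made, Egfr (-1.43, adjusted p = 0.00115) and Hbegf (-0.86, adjusted p = 0.00940) in basal cells under caloric restriction.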
